A study of Homo sapiens with 6 samples.

Results

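The 10 enzymes described here make serine, glycine, one-carbon units, asparagine and proline. They were taken as the rows of the value table whose platform gene symbol is PHGDH, PSAT1, PSPH, SHMT1, SHMT2, MTHFD2, MTHFD1L, ASNS, PYCR1 or ALDH1L2, with the highest mean over all arrays where a symbol had several rows, and all 10 of the 10 were found among 18418 symbols measured alone on a row. RNA came from 3 human breast cancer lines: MDA-MB-231, a triple-negative line grown from a pleural effusion, and its metastatic derivatives 231BoM-1833, which seeds bone, and 231BrM-2a, which seeds brain. From each line, cells without CD24 and with CD44 and ESA (the EPCAM protein) on their surface, the sort the submitters use for cancer stem cells, were taken with magnetic beads. Per the labels, the lines were grown in RPMI-1640 with fetal bovine serum, no agent was added, and no array held unsorted cells. Each line had 2 Affymetrix Human Gene 1.0 ST arrays, 6 in all. The submitters' stated question was how the sorted cells of the metastatic lines differ from those of MDA-MB-231.

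Cells build serine from the glycolytic intermediate 3-phosphoglycerate in a chain of 3 enzymes, PHGDH, PSAT1 and PSPH. Serine hydroxymethyltransferases, SHMT2 in mitochondria and SHMT1 in the cytosol, then split serine into glycine and a one-carbon unit carried on folate, and MTHFD2, MTHFD1L and ALDH1L2 process that unit in mitochondria. ASNS makes asparagine and PYCR1 makes proline, and many of these genes are known targets of ATF4, the transcription factor switched on when amino acids run short. PHGDH is best known in breast cancer for its amplification in some oestrogen receptor-negative tumours.

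RefSeq promoter windows of assembly GRCh38.p14, from 250 bases before to 50 after a start, were at hand for 6 of the 10 enzymes (PHGDH, PSAT1, SHMT1, MTHFD2, MTHFD1L and ASNS, 10 windows). The stretches shown belong to the pair that differed most between the 2 derivatives in opposite directions, PHGDH (chr1:119711684-119711933, plus strand) and SHMT1 (chr17:18363551-18363800, minus strand), and to both enzymes whose windows hold TGATGNAA, the sequence ATF4 binds together with C/EBP proteins: ASNS (chr7:97872409-97872658, minus strand) and MTHFD1L (chr6:150866346-150866375, plus strand). The stretches of PHGDH, SHMT1 and ASNS run from base -250 to base -1 before a start of the gene, for ASNS 1 of its 2. That of MTHFD1L covers 30 bases around its match. Matches are in capitals and all are written 5′ to 3′ on the gene's strand.
PHGDH: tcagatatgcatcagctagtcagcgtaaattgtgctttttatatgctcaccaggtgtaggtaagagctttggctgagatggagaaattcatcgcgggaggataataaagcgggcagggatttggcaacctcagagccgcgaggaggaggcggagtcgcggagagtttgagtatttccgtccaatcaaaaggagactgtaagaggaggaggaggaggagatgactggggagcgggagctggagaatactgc
SHMT1: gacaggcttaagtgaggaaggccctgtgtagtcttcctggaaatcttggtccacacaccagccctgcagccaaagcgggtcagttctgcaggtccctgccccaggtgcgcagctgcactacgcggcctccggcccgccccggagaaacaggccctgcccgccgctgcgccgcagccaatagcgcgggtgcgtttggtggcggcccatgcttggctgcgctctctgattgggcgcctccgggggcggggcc
ASNS: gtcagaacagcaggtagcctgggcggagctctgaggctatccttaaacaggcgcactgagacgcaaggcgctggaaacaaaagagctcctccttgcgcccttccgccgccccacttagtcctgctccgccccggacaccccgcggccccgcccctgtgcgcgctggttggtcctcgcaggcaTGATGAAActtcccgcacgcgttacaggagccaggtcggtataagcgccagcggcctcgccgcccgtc
MTHFD1L: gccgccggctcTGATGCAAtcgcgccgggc

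The printed stretches were 51.2% G or C for PHGDH, 68.4% for SHMT1 and 66% for ASNS. The windows were searched on both strands for TGATGNAA, for the E-box CACGTG, which MYC can bind, and for TGACNNNGC, the core of the antioxidant response element bound by NRF2. The motif TGATGNAA was found in 4 of the 10 windows, of 2 of the 6 enzymes, against 3.62% of all 35116 windows. It read TGATGAAA in ASNS (chr7:97872469-97872476) and TGATGCAA in MTHFD1L (chr6:150866357-150866364). In ASNS it began at base -68 before 1 of its 2 starts, and the window of the other start held no match. CACGTG was found in 3 of the 10 windows, all of MTHFD1L, at chr6:150866332-150866337 and not overlapping the other match, against 7.26% of all windows. TGACNNNGC was found in 1 of the 10 windows, of MTHFD2, against 13.3% of all windows. Overlapping windows of a gene are counted more than once in these shares. The PHGDH and SHMT1 windows held no match to any of the 3. Of the 4 MTHFD1L windows, 3 overlap and share the same match. It begins at base -129, -90 or 25 from the start, depending on the window, and base 25 lies after the start.

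The enzymes called against MDA-MB-231 were ALDH1L2 and MTHFD1L in 231BoM-1833, and PHGDH and SHMT1 in 231BrM-2a. In 231BoM-1833, ALDH1L2 rose 4.16-fold against MDA-MB-231, and MTHFD1L fell by 0.58 on the log2 scale. In 231BrM-2a, PHGDH fell 3.13-fold and SHMT1 rose 1.81-fold. ALDH1L2 and MTHFD1L changed there in the same direction as in 231BoM-1833, by 0.63 and -0.32 on the log2 scale, not called. PHGDH and SHMT1 changed in the opposite direction in 231BoM-1833, by 0.49 and -0.42, also not called. Between the derivatives, PHGDH was 4.38-fold and ALDH1L2 2.69-fold lower in 231BrM-2a, and SHMT1 was 2.42-fold higher. The values are log2 expression values from the RMA method, and the tests are limma's, two-sided, on all 6 arrays, with Benjamini-Hochberg adjustment over 21214 transcript clusters (the array's gene-level units) and a call at an adjusted p under 0.05. The labels name the 2 arrays of a line biological replicates but do not give the culture or sort each came from, and a p-value here covers no more than the spread of these samples, some of which may be technical. In such bulk samples, fewer cells of a kind and less RNA per cell cannot be told apart, and values on the RMA scale would not show a change in all RNA together.

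Of the 10 enzymes, 2 were called in 231BoM-1833 against MDA-MB-231 (1 higher, 1 lower), where 15.8% of all clusters were called, 8.43% as higher and 7.38% as lower. In 231BrM-2a against MDA-MB-231, 2 were called (1 higher, 1 lower), against 19% of all clusters, 10.5% higher and 8.59% lower. Between 231BrM-2a and 231BoM-1833, 3 were called (1 higher and 2 lower in 231BrM-2a), against 23.5% of all clusters, 12.5% higher and 11% lower. Each of these shares of the enzymes lies near its background, so the counts say nothing particular of the set, and the results rest on the single genes. At an unadjusted p under 0.05 the counts of enzymes were 4, 7 and 6 of 10, beside 32.5%, 32.7% and 34.6% of all clusters.

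**Figure D1:**
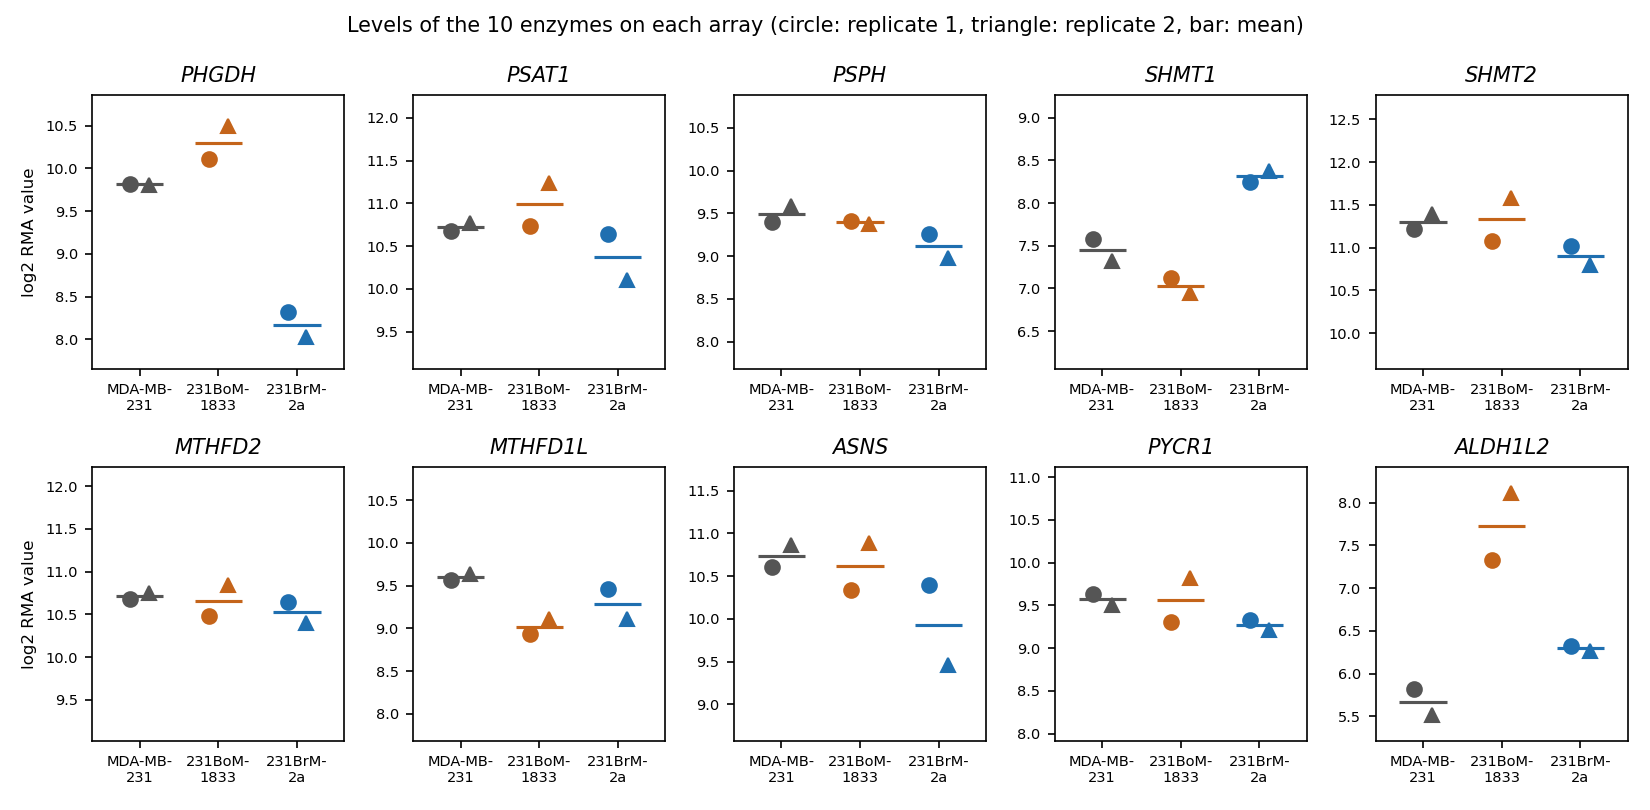
Log2 RMA value (vertical axis, each panel with its own range of the same height) of the 10 enzymes on each array, by line; circles are replicate 1, triangles replicate 2 and bars the mean of the line. PHGDH lies lowest and SHMT1 highest on both 231BrM-2a arrays, and ALDH1L2 lies highest on both 231BoM-1833 arrays.

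PHGDH, the dehydrogenase that commits 3-phosphoglycerate to serine (transcript cluster 7904433), had log2 values of 9.82 and 9.81 in MDA-MB-231, 10.11 and 10.49 in 231BoM-1833, and 8.32 and 8.02 in 231BrM-2a. Both brain-seeking arrays lay below all others and both bone-seeking arrays above all others, with no overlap between any lines. The log2 change in 231BrM-2a was -1.64 ± 0.15 (SE, n = 2 per line, limma adjusted p = 0.000141) and that in 231BoM-1833 was 0.49 ± 0.15 (limma adjusted p = 0.0594), which missed the threshold. It was called without the first 231BoM-1833 array, at 0.68 (limma adjusted p = 0.0223), and was 0.29 without the second (0.231). With the change itself at 0.49, it was also called with the dimmest 33.3% of the clusters left out (0.0463) and with eBayes's trend and robust options (0.0459). The derivatives differed by -2.13 on the log2 scale (231BrM-2a minus 231BoM-1833, 95% interval -2.47 to -1.79, limma adjusted p = 1.91e-05), and PHGDH kept both its calls in the comparisons with 231BrM-2a under each of the 14 alternatives. A further cluster carries the symbols MZT2B and PHGDH together and was not used, since its probes cannot be assigned to 1 gene. Its log2 changes were -0.10 in 231BoM-1833, 0.16 in 231BrM-2a and 0.27 between the derivatives, with none called.

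PSAT1, the transaminase of the second step, had log2 values of 10.68 and 10.77 in MDA-MB-231, 10.74 and 11.24 in 231BoM-1833, and 10.65 and 10.10 in 231BrM-2a. The bone-seeking arrays overlapped the parental ones, and the brain-seeking ones lay below them, 1 of them by little. No comparison passed the threshold: the log2 change was 0.26 ± 0.20 in 231BoM-1833 (limma adjusted p = 0.408), -0.35 ± 0.20 in 231BrM-2a (0.256) and -0.62 ± 0.20 between the derivatives (0.0548). Without the first 231BoM-1833 array that last difference was -0.86 (limma adjusted p = 0.0184), and without the first 231BrM-2a array -0.89 (0.0232), both called. Without the second array of either line it was -0.37 (231BoM-1833, 0.275) or -0.34 (231BrM-2a, 0.338). It was also called with arrays centred on their median (0.0390) and with the dimmest 33.3% of the clusters left out (0.0439).

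PSPH, the phosphatase that releases free serine, had log2 values of 9.40 and 9.59, 9.41 and 9.38, and 9.26 and 8.98 in the parental, bone-seeking and brain-seeking line. The lines lay close together, with the brain-seeking arrays lowest. The log2 changes of -0.10 ± 0.13 in 231BoM-1833 (95% interval -0.39 to 0.19), -0.38 ± 0.13 in 231BrM-2a (limma adjusted p = 0.0706) and -0.27 ± 0.13 between the derivatives (limma adjusted p = 0.162) were not called. A second PSPH cluster gave 0.0034, -0.10 and -0.11, also not called, so the clusters differ in sign in 231BoM-1833. Of the 3 enzymes of the chain from 3-phosphoglycerate, only PHGDH was therefore called in any comparison.

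SHMT2, the mitochondrial hydroxymethyltransferase, had log2 values of 11.22 and 11.39 in MDA-MB-231, 11.08 and 11.58 in 231BoM-1833, and 11.01 and 10.79 in 231BrM-2a. The bone-seeking arrays spanned the parental pair and the brain-seeking pair lay below it. The log2 change was 0.026 ± 0.17 in 231BoM-1833 (95% interval -0.35 to 0.40) and -0.40 ± 0.17 in 231BrM-2a (limma adjusted p = 0.130), and neither was called. The second was called with only the arrays of the 2 lines in the fit or without either 231BoM-1833 array, which alike take that line's spread out of the fit (limma adjusted p = 0.0441). Between the derivatives the difference was -0.43 ± 0.17 (limma adjusted p = 0.101), and -0.68 without the first 231BoM-1833 array (0.0125) but -0.18 without the second (0.473).

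SHMT1, its cytosolic counterpart (transcript cluster 8013243), had log2 values of 7.58 and 7.32 in MDA-MB-231, 7.12 and 6.95 in 231BoM-1833, and 8.24 and 8.38 in 231BrM-2a. No lines overlapped, and the order was the reverse of that of PHGDH, with the brain-seeking line highest and the bone-seeking line lowest. SHMT1 rose in 231BrM-2a by 0.86 ± 0.13 on the log2 scale (limma adjusted p = 0.00192). In 231BoM-1833 its log2 change of -0.42 ± 0.13 was not called (limma adjusted p = 0.0547), but was with the dimmest 33.3% of the clusters left out (0.0410). The derivatives differed by 1.28 (231BrM-2a minus 231BoM-1833, 95% interval 0.99 to 1.56, limma adjusted p = 0.000135), and SHMT1 kept both its calls in the comparisons with 231BrM-2a under each of the 14 alternatives.

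MTHFD2, the dehydrogenase and cyclohydrolase of the mitochondrial folate arm, had log2 values of 10.68 and 10.75 in MDA-MB-231, 10.48 and 10.85 in 231BoM-1833, and 10.65 and 10.40 in 231BrM-2a. Its line means were the closest of the 10, at most 0.19 apart, with a gap of 0.37 between the 231BoM-1833 arrays. Its log2 changes were -0.052 ± 0.14, -0.19 ± 0.14 and, between the derivatives, -0.14 ± 0.14, with limma adjusted p of 0.833, 0.397 and 0.562. A second MTHFD2 cluster gave -0.19, -0.21 and -0.015, likewise not called.

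MTHFD1L, which makes formate in mitochondria (transcript cluster 8122773), had log2 values of 9.57 and 9.64 in MDA-MB-231, 8.94 and 9.11 in 231BoM-1833, and 9.46 and 9.11 in 231BrM-2a. All derivative arrays lay below the parental pair, and the lower brain-seeking array lay just above the higher bone-seeking one. MTHFD1L fell in 231BoM-1833 by 0.58 ± 0.13 on the log2 scale (limma adjusted p = 0.0205). The call was lost without the first or second MDA-MB-231 array (limma adjusted p = 0.0777 and 0.127), without the first 231BoM-1833 array (0.0737) and with clusters lacking a symbol added to the adjustment (0.0607). In 231BrM-2a the log2 change was -0.32 ± 0.13 (limma adjusted p = 0.132), and the difference between the derivatives of 0.26 ± 0.13 was not called (0.205). Another 4 clusters name MTHFD1L together with uncharacterised loci, 2 of them with identical values, and their log2 changes in 231BoM-1833 ran from -0.30 to -0.14, none called.

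ALDH1L2, the mitochondrial enzyme that oxidises formyl-tetrahydrofolate to carbon dioxide and NADPH (transcript cluster 7965979), had log2 values of 5.82 and 5.52 in MDA-MB-231, 7.33 and 8.12 in 231BoM-1833, and 6.33 and 6.27 in 231BrM-2a. No lines overlapped: the bone-seeking arrays were highest and the parental arrays lowest. ALDH1L2 rose in 231BoM-1833 by 2.06 ± 0.22 on the log2 scale (95% interval 1.56 to 2.56, limma adjusted p = 0.000649). Between the derivatives the difference was -1.43 ± 0.22 (231BrM-2a minus 231BoM-1833, limma adjusted p = 0.00174), and both calls were kept under each alternative run. In 231BrM-2a against MDA-MB-231, the log2 change of 0.63 ± 0.22 was not called (limma adjusted p = 0.0817), though with the arrays of these 2 lines alone, or without either 231BoM-1833 array, it was (0.00858). Its mean of 6.56 over all arrays is at the 38.4th percentile of clusters with a symbol. The bone-seeking arrays raise that mean, and the parental mean was 5.67. The filter on dim clusters, set at 6.26, used the mean over all arrays, so calls kept under it add no support. No background level came with the values, so how far such a low parental level is signal is unknown, and the fold of a dim cluster may be compressed.

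ASNS, asparagine synthetase, had log2 values of 10.61 and 10.86 in MDA-MB-231, 10.34 and 10.89 in 231BoM-1833, and 10.40 and 9.46 in 231BrM-2a. The second 231BrM-2a array lay far below the first, with a gap of -0.94 that was the widest of any enzyme in any line. The log2 change was -0.12 ± 0.28 in 231BoM-1833 (95% interval -0.75 to 0.51) and -0.81 ± 0.28 in 231BrM-2a (limma adjusted p = 0.0781). Without the first 231BrM-2a array, the latter was -1.28 and called (limma adjusted p = 0.0120), and without the second it was -0.34 (0.426). The difference between the derivatives of -0.69 ± 0.28 (limma adjusted p = 0.116) was -1.15 and called without the first 231BrM-2a array (0.0129), and -0.22 without the second (0.624). Leaving out the second 231BoM-1833 array gave -0.41 (0.446).

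PYCR1, the mitochondrial enzyme of the last step of proline synthesis, had log2 values of 9.63 and 9.51 in MDA-MB-231, 9.31 and 9.83 in 231BoM-1833, and 9.33 and 9.21 in 231BrM-2a. The bone-seeking pair spanned the parental one and the brain-seeking pair lay below the parental one. The log2 changes were -0.0026 ± 0.16 in 231BoM-1833 (95% interval -0.37 to 0.36), -0.30 ± 0.16 in 231BrM-2a (limma adjusted p = 0.235) and -0.30 ± 0.16 between the derivatives (0.236). Without the first 231BoM-1833 array this last difference was -0.55 and called (limma adjusted p = 0.0173), and without the second it was -0.039 (0.885).

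**Figure D2:**
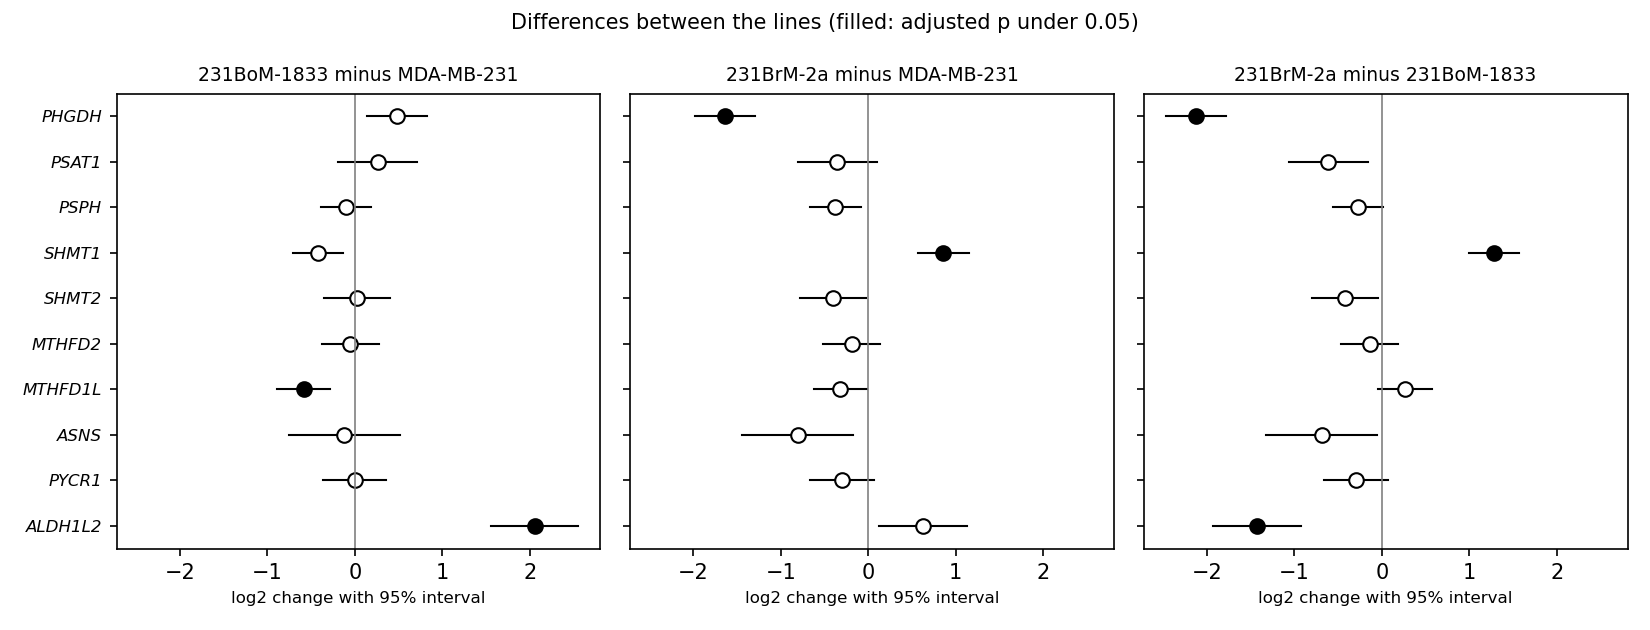
Log2 change (horizontal axis) of each enzyme in the 3 comparisons; points are limma estimates, lines their 95% intervals and filled points have an adjusted p under 0.05. PHGDH and SHMT1 lie on opposite sides of 0 in each panel with 231BrM-2a, and most open points in the second panel lie left of 0.

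Across the 10 enzymes, the median log2 change was -0.027 in 231BoM-1833, beside -0.052 over all clusters. It was -0.34 in 231BrM-2a, beside -0.050, and -0.36 between the derivatives, beside 0.013. In 231BrM-2a, 8 of the 10 enzymes had values below 0 against MDA-MB-231, as had 57.9% of all clusters, and all but PHGDH of these 8 missed the threshold. Between the derivatives 8 were below 0, where 48.0% of all clusters were, and the median size of the difference was 0.52 on the log2 scale, beside 0.18. The lines did not overlap for 4, 10 and 7 of the 10 enzymes in the 3 comparisons, and 2 arrays against 2 often fail to overlap: they did so for 59.8%, 63.8% and 60.1% of all clusters. The comparisons of the derivatives with MDA-MB-231 share the parental arrays, so their values stand side by side here with no measure of likeness between them.

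The 2 arrays of a derivative differed for most of these enzymes. In 231BoM-1833, 8 of the 10 were higher on the second array, as were 50.4% of all clusters. The median gap was 0.44, beside 0.0019 over all clusters, whose median absolute gap was 0.14. PSPH and SHMT1 were the exceptions. In 231BrM-2a, 9 of the 10 were lower on the second array, where 53.1% of all clusters were higher, and SHMT1 alone was higher there. The median gap was -0.26, beside 0.013 over all clusters, whose median absolute gap was 0.11. In MDA-MB-231, 6 were higher and 4 lower on the second array, where 49.4% of all clusters were higher, with a median absolute gap of 0.15. SHMT1 thus differed between arrays in the direction opposite to most of the others in both derivatives, by -0.17 and 0.13.

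**Figure D3:**
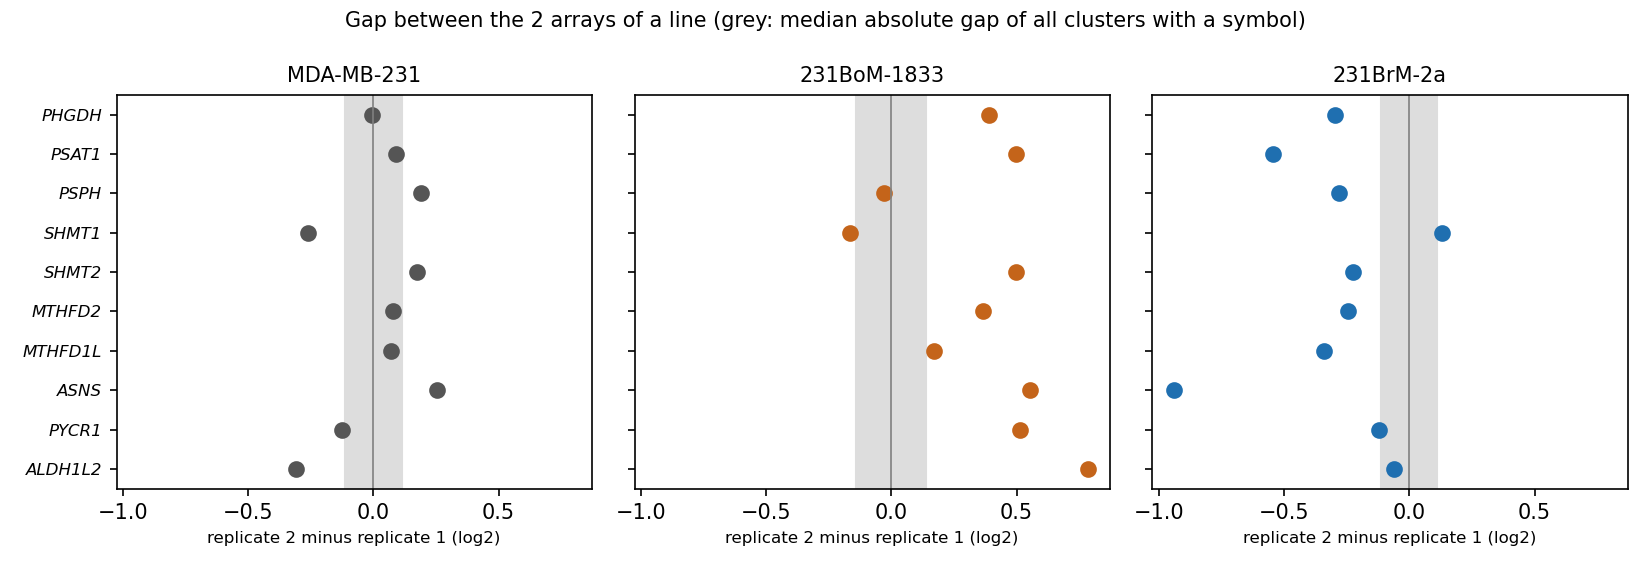
Gap between the 2 arrays of each line (horizontal axis, replicate 2 minus replicate 1 in log2 units) for the 10 enzymes; the grey band spans the median absolute gap of all clusters with a symbol. In 231BoM-1833, 8 enzymes lie right of 0, and in 231BrM-2a, 9 lie left of it.

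Other gene groups moved between the same arrays. Of 12 amino acid transporters, 10 were higher on the second 231BoM-1833 array (median gap 0.23) and 11 were lower on the second 231BrM-2a array (-0.25). Of 18 proliferation genes, 17 were lower on the second 231BoM-1833 array (-0.40) and all 18 higher on the second 231BrM-2a array (0.16), the direction opposite to most of the enzymes. Of the sort markers, EPCAM was 8.32 and 7.28, CD24 6.49 and 5.76 and CD44 12.17 and 11.82 on the 231BoM-1833 arrays. On the 231BrM-2a arrays EPCAM was 8.15 and 8.23, CD24 5.91 and 5.91 and CD44 11.45 and 11.46. The part of these groups in the enzymes' values was not tested. Same-line arrays correlated at 0.9935 to 0.9959 over all clusters with a symbol and arrays of different lines at 0.9666 to 0.9832, as a description over clusters that share probes and normalisation.

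The surrounding pathways were read from 10 lists of 144 genes, of which 127 had a cluster of their own symbol. Beside the counts of the lists and markers below stand the shares of all clusters called. These were 8.43% higher and 7.38% lower in 231BoM-1833, 10.5% and 8.59% in 231BrM-2a, and 12.5% and 11% between the derivatives. Some of the counts lie near these shares. The list genes that could be named gave 81 calls over the 3 comparisons, and 37 of these were kept with each of the 6 arrays left out in turn. Among 13 measured genes of the folate cycle and folate transport, 1 rose and 1 fell in 231BoM-1833, 2 rose and 2 fell in 231BrM-2a, and 3 were higher and 3 lower in 231BrM-2a than in 231BoM-1833. Without either MDA-MB-231 array these became 0 and 0 in 231BoM-1833 and 1 and 1 in 231BrM-2a, where leaving out either 231BrM-2a array also gave 1 and 1. SLC25A32, the mitochondrial folate carrier, fell in 231BrM-2a by 0.83 ± 0.12 on the log2 scale (limma adjusted p = 0.00199), with log2 values of 11.25 and 11.38 on the parental and 10.60 and 10.38 on the brain-seeking arrays. MTFMT, which uses formyl-tetrahydrofolate to formylate the charged mitochondrial initiator tRNA, rose there by 0.57 ± 0.10 (limma adjusted p = 0.00478). In 231BoM-1833, MTHFD1, the cytosolic trifunctional folate enzyme, fell by 0.55 ± 0.12 (limma adjusted p = 0.0147, and up to 0.110 without either MDA-MB-231 array or the second 231BoM-1833 array). TYMS, which makes thymidylate from a folate-bound carbon, was higher in 231BrM-2a than in 231BoM-1833 by 0.72 ± 0.14 (limma adjusted p = 0.00530).

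Among 11 genes of glycine cleavage and serine use, 1 rose and 0 fell in 231BoM-1833, and 3 rose and 0 fell in 231BrM-2a. The count of 3 became 1 without either MDA-MB-231 array and 0 without the second 231BrM-2a array. The riser in 231BoM-1833 was SPTLC2, a subunit of the enzyme that joins serine to a fatty acid in sphingolipid synthesis, with log2 values of 9.56 and 9.45 in MDA-MB-231, 10.55 and 10.60 in 231BoM-1833 and 9.56 and 9.52 in 231BrM-2a. Both bone-seeking arrays lay above all others, a change of 1.07 ± 0.10 (limma adjusted p = 0.000355). SRR, which racemises serine, was called in 231BrM-2a at 0.43 ± 0.10 (limma adjusted p = 0.0195), a call lost with any 1 of the 4 arrays of the lines compared left out (up to 0.106). Among 11 genes of the methionine cycle and transsulfuration, 1 rose and 2 fell in 231BoM-1833, and 1 rose and 3 fell in 231BrM-2a. These counts are not stable: 0 and 0 were called in either derivative without the second MDA-MB-231 array, and in 231BrM-2a also without its second array or with clusters lacking a symbol added. Without the first MDA-MB-231 array, 1 rose and 0 fell in 231BoM-1833 and 0 rose and 1 fell in 231BrM-2a, where leaving out its first array also gave 0 and 1. CTH, which makes cysteine from serine-derived cystathionine, had log2 values of 9.47 and 9.71, 10.09 and 10.41, and 8.97 and 8.19 in the same order of lines. Its brain-seeking arrays were the lowest and far apart, and the difference between the derivatives was -1.67 ± 0.23 (limma adjusted p = 0.000852).

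Of 11 genes of proline, glutamate, aspartate and arginine metabolism, 0 rose and 1 fell in 231BoM-1833. That gene was ASS1, the enzyme of arginine synthesis, with log2 values of 9.99 and 9.85 in MDA-MB-231, 8.51 and 8.64 in 231BoM-1833 and 10.08 and 10.00 in 231BrM-2a. The bone-seeking pair stood apart from all others, at -1.34 ± 0.11 against MDA-MB-231 (limma adjusted p = 0.000143). In 231BrM-2a, limma called 0 of the 11 against MDA-MB-231, with 2 at an unadjusted p under 0.05, beside 32.7% of all clusters.

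Of 20 regulators and targets of the amino acid response, 6 rose and 0 fell in 231BoM-1833, 2 rose and 2 fell in 231BrM-2a, and 1 was higher and 5 lower in 231BrM-2a than in 231BoM-1833. Without either MDA-MB-231 array the risers in 231BoM-1833 numbered 2, and over all alternatives 2 to 6. The risers in 231BrM-2a numbered 1 without either MDA-MB-231 array or the first 231BrM-2a array. DDIT3, the stress-induced factor CHOP, rose in 231BoM-1833 by 2.24 ± 0.32 on the log2 scale (limma adjusted p = 0.00257), with log2 values of 8.66 and 7.90 on the parental and 10.73 and 10.32 on the bone-seeking arrays. CHAC1, which degrades glutathione, had log2 values of 8.61 and 8.74 in MDA-MB-231, 9.53 and 9.24 in 231BoM-1833 and 7.90 and 7.71 in 231BrM-2a. It was highest in the bone-seeking and lowest in the brain-seeking line, as PHGDH was, with no overlap and a difference between the derivatives of -1.58 ± 0.13 (limma adjusted p = 5.11e-05). SESN2, a leucine sensor, showed the same order, with a difference of -1.36 ± 0.12 (limma adjusted p = 6.17e-05). TRIB3 and some others of the list had that order of line means too. The TRIB3 means were 8.75, 9.19 and 8.24 in the parental, bone-seeking and brain-seeking line. Its difference between the derivatives was -0.96 ± 0.27 (limma adjusted p = 0.0308), a call not kept with each array left out in turn. Further genes of the list did not follow that order. EIF2AK3 was highest in the brain-seeking line and rose there by 1.23 ± 0.10 (limma adjusted p = 8.84e-05). ATF3 rose in both derivatives, by 0.98 ± 0.23 in 231BoM-1833 (limma adjusted p = 0.0237) and 1.08 ± 0.23 in 231BrM-2a (0.0120). The ATF3 calls were not kept with each array left out in turn. ATF4 itself, picked out after its values were seen, had means of 11.64 ± 0.059, 11.66 ± 0.15 and 11.41 ± 0.086 (SD, n = 2) in the parental, bone-seeking and brain-seeking line. Limma called no comparison of it, with adjusted p of 0.927 in 231BoM-1833, 0.205 in 231BrM-2a and 0.165 between the derivatives.

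Of the 12 transporters, 0 rose and 4 fell in 231BrM-2a, and limma called 0 in 231BoM-1833, where 4 of the 12 had an unadjusted p under 0.05, beside 32.5% of all clusters. SLC38A2, which carries small neutral amino acids, had log2 values of 13.09 and 12.99 in MDA-MB-231, 12.69 and 12.67 in 231BoM-1833 and 12.02 and 11.82 in 231BrM-2a. No lines overlapped, and it fell in 231BrM-2a by 1.13 ± 0.11 (limma adjusted p = 0.000240). SLC1A4 and SLC1A5, both carriers of serine among other amino acids, were called lower there at -0.97 ± 0.27 and -0.72 ± 0.18 (limma adjusted p = 0.0347 and 0.0212). Both calls were lost without either MDA-MB-231 array or the second 231BrM-2a array, with limma adjusted p up to 0.229 and 0.158. The count of transporters that fell in 231BrM-2a ran from 1 to 5 over the alternatives, and was 1 without either MDA-MB-231 array or the second 231BrM-2a array.

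Of 18 cytosolic aminoacyl-tRNA synthetases, which load tRNAs with amino acids, 1 rose and 8 fell in 231BrM-2a, and 0 rose and 2 fell in 231BoM-1833. The median log2 change of the 18 was -0.41 in 231BrM-2a and 0.058 in 231BoM-1833, and the count that fell in 231BrM-2a ran from 4 to 9 over the alternatives, with 5 and 4 without the first and second MDA-MB-231 array and 4 without the second 231BrM-2a array. In 231BoM-1833, 1 fell without either MDA-MB-231 array. NARS1, the asparagine enzyme, had log2 values of 11.90 and 11.88 in MDA-MB-231, 11.95 and 12.03 in 231BoM-1833 and 10.97 and 10.77 in 231BrM-2a. Only the brain-seeking pair stood apart, with a fall of 1.02 ± 0.11 (limma adjusted p = 0.000394). KARS1, the lysine enzyme, fell instead in both derivatives, by 1.05 ± 0.10 in 231BoM-1833 (limma adjusted p = 0.000426) and by 0.69 ± 0.10 in 231BrM-2a (0.00207).

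**Figure D4:**
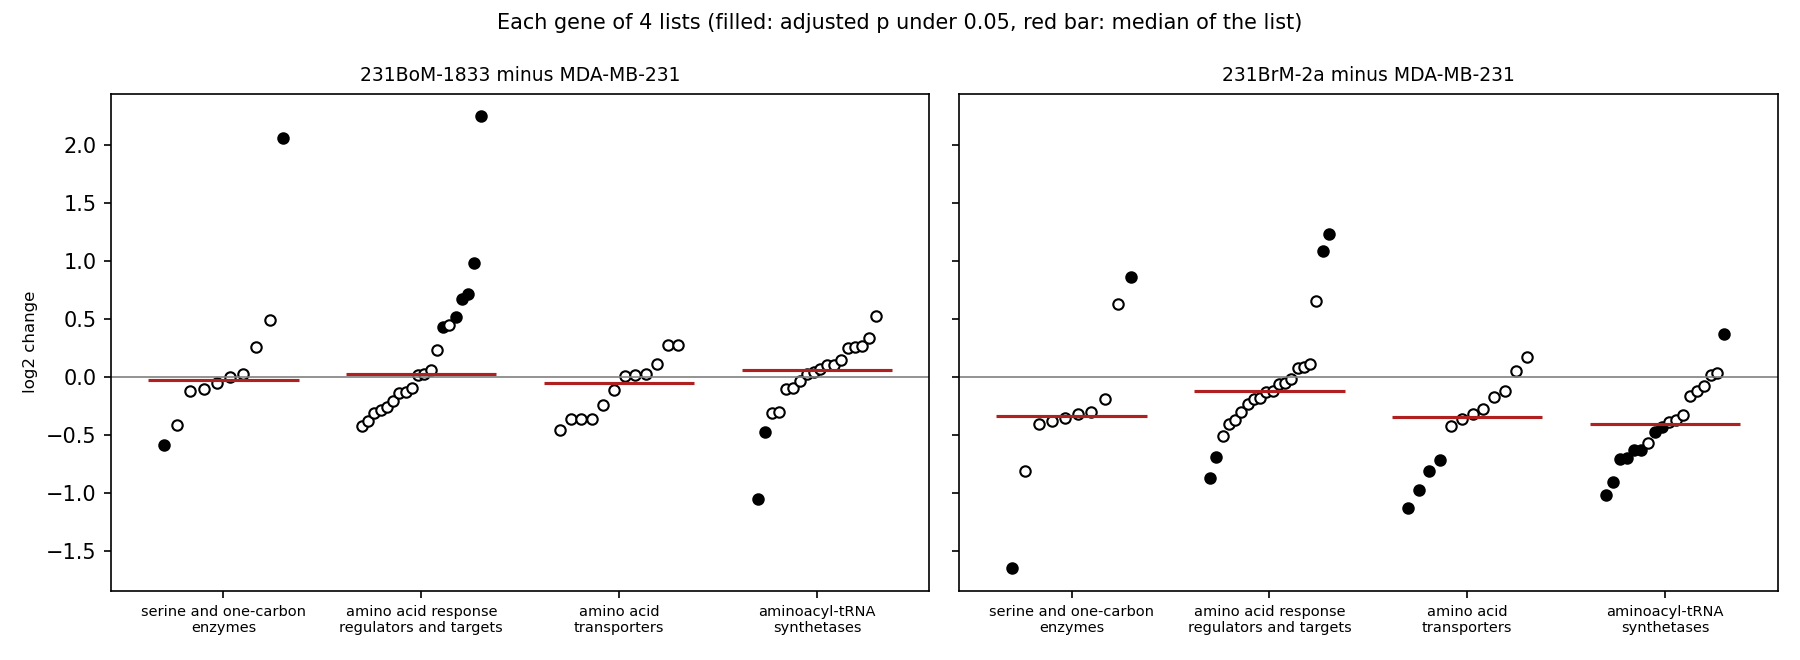
Log2 change against MDA-MB-231 (vertical axis) of each gene of 4 groups, in 231BoM-1833 (left) and 231BrM-2a (right); filled points have a limma adjusted p under 0.05, red bars are medians and points are sorted by value within a group. The medians of the transporters and synthetases are -0.34 and -0.41 in 231BrM-2a and -0.055 and 0.058 in 231BoM-1833.

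Of 6 measured other regulators of these enzymes, 0 rose and 2 fell in 231BoM-1833, and 1 rose and 2 fell in 231BrM-2a. Without the second MDA-MB-231 array, 0 rose and 0 fell in 231BoM-1833, and 0 rose and 1 fell in 231BrM-2a, as also without the first 231BrM-2a array. MYC, a driver of growth genes, was among those that fell in both, by 0.54 ± 0.10 in 231BoM-1833 (limma adjusted p = 0.00958, and 0.0796 without the second MDA-MB-231 array) and by 0.79 ± 0.10 in 231BrM-2a (0.00105). Of 7 target enzymes of NRF2, the factor of the oxidative stress response, 2 rose and 0 fell in 231BrM-2a, namely NQO1 by 1.00 ± 0.12 (limma adjusted p = 0.000706) and GCLM, of glutathione synthesis, by 1.21 ± 0.21 (0.00441). In 231BoM-1833, 1 of the 7 rose and 0 fell, a call lost without either MDA-MB-231 array. Of the 18 proliferation genes, 3 rose and 3 fell in 231BoM-1833, and 4 rose and 0 fell in 231BrM-2a, where the median was 0.27. In 231BoM-1833 the counts became 0 and 0 without either MDA-MB-231 array, 0 and 3 without the first 231BoM-1833 array and 5 and 0 without the second. In 231BrM-2a the risers numbered 2 without any 1 of the arrays of the lines compared and 6 without either 231BoM-1833 array. CCNB2, a mitotic cyclin, rose there by 0.93 ± 0.15 (limma adjusted p = 0.00279).

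The sorted cells were checked against markers. Of the sort markers, CD44 lay at 11.45 to 12.17 on the log2 scale, EPCAM at 7.28 to 8.32 and CD24, which the sort selects against, at 5.76 to 6.49 over the 6 arrays. CD44 was lower in 231BrM-2a than in 231BoM-1833 (limma adjusted p = 0.0140), and no other difference in a sort marker was called. Vimentin, the mesenchymal filament, lay at 12.30 to 12.92 and fell in 231BrM-2a by 0.37 (limma adjusted p = 0.0294). LAMB1, a laminin chain, fell in 231BoM-1833 by 0.55 and rose in 231BrM-2a by 1.46 (limma adjusted p = 0.0272 and 0.000155). ESR1 and PGR, the hormone receptors, lay at 4.48 to 5.24, but ERBB2, the third receptor a triple-negative line is named for, lay at 8.29 to 9.25 and rose in 231BrM-2a by 0.45 (limma adjusted p = 0.0235). KRT8, an epithelial keratin, lay at 11.45 to 12.33 and rose in 231BrM-2a by 0.75 (limma adjusted p = 0.00246). Of 5 measured leukocyte markers, PTPRC and LYZ lay at 3.60 to 3.96, CD3E at 4.90 to 5.10 and ITGAM at 5.66 to 6.11. CD14 was called higher in 231BoM-1833 and lower in 231BrM-2a. The mean log2 level of the 5 was 5.24 to 5.25 on the parental, 5.35 to 5.38 on the bone-seeking and 5.07 to 5.09 on the brain-seeking arrays. Of 7 fibroblast markers, 4 rose and 0 fell in 231BrM-2a (PDGFRB, DCN, COL1A1 and LUM), and 0 rose and 1 fell in 231BoM-1833 (DCN). Their mean log2 level was 6.36 to 6.47 on the brain-seeking, 5.91 to 5.95 on the parental and 5.78 to 5.82 on the bone-seeking arrays. Of 4 endothelial markers 0 rose and 2 fell in 231BrM-2a (KDR and PECAM1), and 1 rose and 0 fell in 231BoM-1833 (KDR). Their mean log2 level was 5.68 to 5.78 on the brain-seeking, 6.14 on both parental and 6.06 to 6.22 on the bone-seeking arrays. KDR, at 6.77 to 8.56, was the highest of the 4 on each array. The part of these markers in the values of the enzymes was not tested.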

How the data were processed

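The authors deposited log2 values, made by RMA in Affymetrix Expression Console, per the labels and the submitters' processing notes, with its version not given. The method subtracts a modelled background, brings all arrays to 1 distribution and combines the probes of each transcript cluster into 1 value. Array number and signal limit the precision here, since arrays have no read depth.

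Of 33297 clusters, a platform table paired 21214 with at least 1 gene symbol and 19461 with exactly 1. Symbols were read from the latter, using the cluster of highest mean for a symbol on several. In R 4.3.3, limma 3.58.1 fitted line means to the 6 arrays together (lmFit, then eBayes at its default settings), which gave 3 residual and 6.06 prior degrees of freedom. Tests of each pair of lines were two-sided, and Benjamini-Hochberg adjusted p-values covered all 21214 clusters. The script was tested on simulated data. All 10 enzymes are named. Of each other list, up to 4 called genes with the largest change in a comparison could be named, or, with no call, the gene that changed most. The members and lists were chosen with earlier results of these data known, so agreement with those is no independent support. The alternatives are given in the closing section.

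The labels number the replicates 1 and 2 in each line. Deviations of same-numbered arrays from their line means correlated over clusters at 0.036 between MDA-MB-231 and 231BoM-1833. With 231BrM-2a they correlated at -0.16 (MDA-MB-231) and -0.17 (231BoM-1833). These values cannot settle whether a shift was shared by number, since larger differences within a line could hide it. Whether same-numbered arrays were handled together is unknown. No block was used in the main tests. No batch is given in the labels. Scanner files were not used here.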

Additional observations from a re-analysis of the deposited data

Results flagged for a closer look

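The change of PHGDH against MDA-MB-231 was positive on both 231BoM-1833 arrays and negative on both 231BrM-2a arrays, with log2 means of 0.49 and -1.64, of which the first was not called. Their difference of -2.13 was tested by the comparison of the derivatives, which the shared parental arrays do not enter as values (limma adjusted p = 1.91e-05, lower on 2 of 2 231BrM-2a arrays). The change of SHMT1 ran the other way, with log2 means of -0.42 in 231BoM-1833, not called, and 0.86 in 231BrM-2a. The difference of 1.28 was tested likewise (limma adjusted p = 0.000135, higher on 2 of 2 231BrM-2a arrays). Lines with 2 arrays each are too small for a check of single arrays that stand apart.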

How the results depend on the processing

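With 2 arrays per line and no detection calls, small changes, and changes of dim clusters, cannot be resolved here. Of the 416 combinations of an enzyme, a comparison and an alternative, 378 kept direction and call, 4 lost a call, 23 gained one and 11 changed sign. All that lost a call concern MTHFD1L in 231BoM-1833. The sign changes in 231BoM-1833 against MDA-MB-231 were in values near 0 and none was called: PYCR1 with arrays centred on their median (0.025), SHMT2 quantile-normalised once more (-0.049), PSPH from its other cluster (0.0034), SHMT2 and PYCR1 without the first MDA-MB-231 array (-0.060 and 0.059), ASNS without the second (0.0061), MTHFD2, ASNS and PYCR1 without the first 231BoM-1833 array (0.13, 0.16 and 0.25) and SHMT2 without the second (-0.22). With 1 array left out, these changes ran from -0.22 to 0.28 for SHMT2, -0.24 to 0.13 for MTHFD2, -0.40 to 0.16 for ASNS and -0.26 to 0.25 for PYCR1. Between the derivatives, MTHFD2 ran from -0.32 to 0.047, the latter without the second 231BoM-1833 array.

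In 231BoM-1833 against MDA-MB-231, 1 enzyme was called when clusters without a symbol were added (2220 clusters in all), 4 with the dimmest 33.3% left out (3461 of 14143 clusters), and 1 to 2 with 1 array left out (932 to 2936 clusters). In 231BrM-2a against MDA-MB-231, 4 were called with the arrays of those lines alone and 2 to 4 with 1 array left out (1764 to 4751 clusters). Between the derivatives, 3 to 6 were called with 1 array left out (3001 to 4750 clusters). Calls with eBayes's trend and robust options numbered 3, 2 and 3 enzymes in the 3 comparisons (3622, 4247 and 5187 clusters). The cause of these moves was not tested beyond the change in arrays or clusters itself.

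With the replicate number as a block, 2, 2 and 3 enzymes and 2724, 3535 and 4564 clusters were called. A block that crosses the 231BrM-2a numbers, chosen after seeing the data, called 4 enzymes and 4468 clusters in 231BrM-2a against MDA-MB-231, and 6 enzymes and 5387 clusters between the derivatives.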
